A study of Homo sapiens with 8 samples.

Results

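The MYC and MAX network is a set of transcription factor genes whose proteins pair through a basic helix-loop-helix leucine zipper. The 9 genes described here are MYC, MAX, MXI1, MXD1, MXD3, MXD4, MNT, MGA and MLX. They were chosen by symbol from the 60196 gene symbols used in the count tables, with no measured value in the rule, and all 9 passed the filter on low counts in both lines. Their mRNAs were measured in P-body preparations and in the fraction that the titles call cyto, read here as cytosolic, of MOLM-13 and HEL, which are established human acute myeloid leukaemia cell lines. MOLM-13 has a monocytic character and HEL is an erythroleukaemia line. There were 4 groups of 2 libraries, namely MOLM-13 P-body, MOLM-13 cytosol, HEL P-body and HEL cytosol. All cells grew in RPMI medium with serum, and the labels name no genetic change, drug or time point. Each type of leukaemia is represented by a single line, the sources used here do not describe the isolation of P-bodies, and nothing states that replicates came from separate cultures. The p-values therefore rest on the spread between libraries alone, and that spread may be technical.

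MYC binds E-box DNA as a heterodimer with MAX and activates genes of growth and ribosome production. The MXD proteins (MXD1, MXD3, MXD4 and MXI1), MNT and MGA compete with MYC for MAX and repress transcription, the MXD proteins and MNT through the SIN3 corepressor and MGA through a variant Polycomb complex. MLX is the MAX-like partner of the glucose-responsive factors MLXIP and MLXIPL, and it also binds MXD1, MXD4 and MNT. P-bodies are cytoplasmic granules without a membrane that hold translationally repressed mRNAs with decapping and silencing proteins, and AU-rich mRNAs are known to gather in them. MYC mRNA is short-lived and carries AU-rich elements in its 3′ untranslated region, and MYC is a central driver of proliferation in acute myeloid leukaemia.

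Total counts were between 9868469 and 18071473 in the P-body libraries and between 5897625 and 15569634 in the cytosolic libraries. Replicate libraries were further apart than counting error allows (chi-square over degrees of freedom of 1.87 to 6.15). Of 9 erythroid and megakaryocytic markers, 2 had at least 10 counts in both libraries of each MOLM-13 group and 8 did in HEL, where GP1BB was at 0, with summed levels of 20.5 to 33.0 CPM in MOLM-13 and 1272 to 2447 CPM in HEL. Of 9 monocytic and granulocytic markers, 9 did in MOLM-13 and 2 or 3 in HEL, where MPO was at 0, with summed levels of 1259 to 1542 CPM in MOLM-13 and 31.0 to 53.7 CPM in HEL. Lymphoid markers summed to 78.8 to 149 CPM in MOLM-13, almost all of it NKG7, and to 1.22 to 2.35 CPM in HEL. The lines' own markers were thus the abundant ones. CPM here is a count relative to the library size after scaling by TMM, which sets the bulk of genes equal between the libraries of a line. For the summed marker levels, all 8 libraries were scaled together. With scaling by library totals alone, the log2 change of the median gene was lower by 0.44 in MOLM-13 and by 0.32 in HEL, and the share of called genes that were higher in P-bodies was 28.9% in place of 53.2% in MOLM-13 and 29.003% in place of 50.3% in HEL. The log2 changes are thus relative to the bulk of mRNAs, not to the cell.

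The mRNAs of the network differ in base composition even where the proteins are alike. The coding sequence of the basic region and first helix, which contacts DNA and starts the dimer interface, is given for 8 of the 9 genes as 20 codons, 5′ to 3′ on the coding strand, with capitals on each last base of a codon that is G or C. The stretches were read from the reference transcripts of GENCODE 29 on GRCh38 and aligned on the conserved glutamate and paired arginines of the basic region.
MXI1: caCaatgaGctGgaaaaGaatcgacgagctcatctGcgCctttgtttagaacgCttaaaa
MXD1: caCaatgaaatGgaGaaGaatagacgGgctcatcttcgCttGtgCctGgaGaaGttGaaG
MXD3: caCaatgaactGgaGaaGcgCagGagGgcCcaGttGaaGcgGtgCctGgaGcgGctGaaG
MXD4: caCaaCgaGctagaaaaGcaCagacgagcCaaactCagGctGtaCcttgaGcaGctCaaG
MNT: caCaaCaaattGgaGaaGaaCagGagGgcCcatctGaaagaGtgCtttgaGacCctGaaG
MGA: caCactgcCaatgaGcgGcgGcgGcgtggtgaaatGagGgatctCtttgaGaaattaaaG
MAX: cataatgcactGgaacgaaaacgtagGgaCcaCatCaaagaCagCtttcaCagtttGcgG
MLX: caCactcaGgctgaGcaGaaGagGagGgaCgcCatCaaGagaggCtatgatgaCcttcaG
Of the 20 codons, 7 end in G or C in MXI1, 11 in MGA, 10 in MAX, 13 in MXD1, 14 in MXD4 and in MLX, 15 in MYC, 16 in MNT and 18 in MXD3. MXI1 and MXD3 are thus the extremes of this stretch, although both encode MAX partners of the MXD family. All 8 stretches are exonic. On GRCh38, MXI1 spans chr10:110207605-110287365 on the plus strand, and its stretch is coding bases 214 to 273. MXD1 spans chr2:69897688-69942945 on the plus strand, and its stretch is coding bases 181 to 240. MXD3 spans chr5:177301461-177312757 on the minus strand, and its stretch is coding bases 184 to 243. MXD4 spans chr4:2247432-2262294 on the minus strand, and its stretch is coding bases 172 to 231. MNT spans chr17:2384060-2401118 on the minus strand, and its stretch is coding bases 673 to 732. MGA spans chr15:41621224-41773081 on the plus strand, and its stretch is coding bases 7282 to 7341. MAX spans chr14:65006174-65102695 on the minus strand, and its stretch is coding bases 82 to 141. MLX spans chr17:42567068-42573239 on the plus strand, and its stretch is coding bases 400 to 459.

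In HEL, 2 of the 9 mRNAs were higher in P-bodies than in the cytosol (MXI1 and MGA), 3 were lower (MYC, MXD1 and MNT) and 4 did not pass the test (MAX, MXD3, MXD4 and MLX). Of all 14772 genes tested in HEL, 54.6% were called, 27.5% higher and 27.1% lower, by edgeR's quasi-likelihood test at a Benjamini-Hochberg adjusted p below 0.05 over all genes. In MOLM-13, 3 were higher in P-bodies (MXI1, MGA and MLX), 4 were lower (MYC, MXD3, MXD4 and MNT) and 2 did not pass the test (MAX and MXD1). Of all 14089 genes tested in MOLM-13, 60.8% were called, 32.4% higher and 28.5% lower. The median log2 change of the 9 was -0.13 in MOLM-13, beside -0.04 over all tested genes, and -0.26 in HEL, beside -0.06. With 5 of 9 called in HEL and 7 of 9 in MOLM-13, the share of members called is no result about the network in itself.

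**Figure D1:**
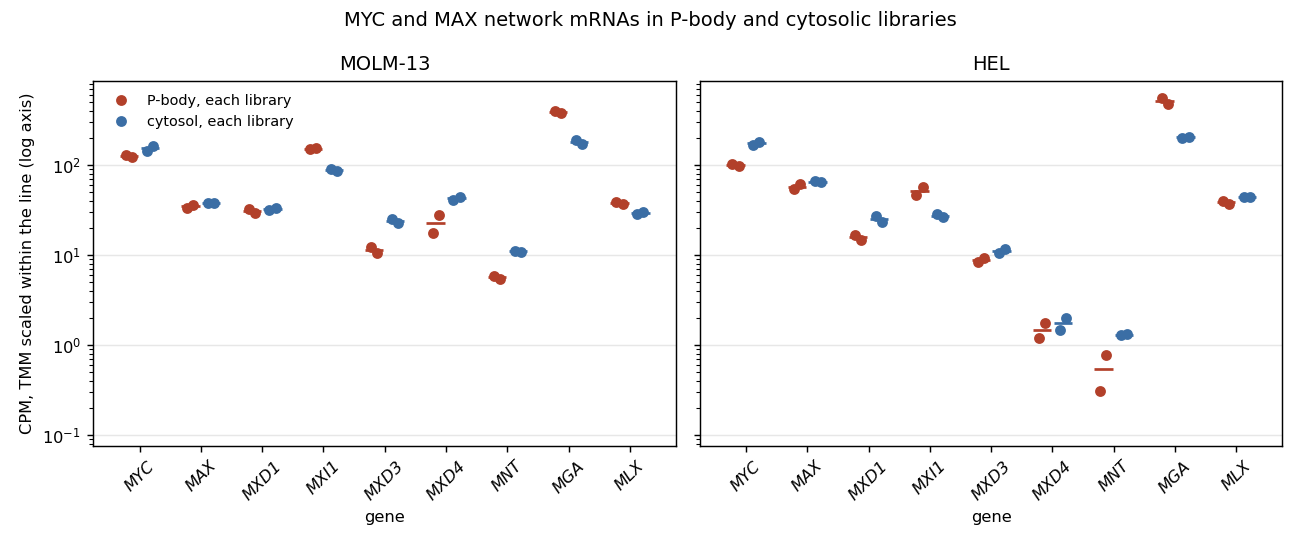
Level of each mRNA in CPM (log axis) in each library, with MOLM-13 and HEL in separate panels and P-body points left of cytosol points. MGA and MXI1 stand higher in P-bodies in both panels and MYC lower, while MXD4 and MNT lie below 2.1 CPM in every HEL library.

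MYC, the activator of the network, encoded on chromosome 8, was lower in P-bodies than in the cytosol in both lines. It had 104 and 98.8 CPM in the HEL P-body libraries, against 167 and 184 CPM in the HEL cytosolic libraries, from 1519 to 3190 counts a library. The HEL groups did not overlap, and the log2 change of -0.79 ± 0.08 (SE) is a 1.73-fold lower level in P-bodies (edgeR adjusted p = 9.3e-07). In MOLM-13, MYC had 130.2 and 125 CPM in P-bodies, against 146 and 165 CPM in the cytosol, again without overlap. The change there was -0.29 ± 0.06, or 1.22-fold lower (edgeR adjusted p = 0.00048), and without the second MOLM-13 cytosolic library it was -0.17 with an adjusted p of 0.0513. MYC stood at percentile 37.6 of the log2 changes of all tested genes in MOLM-13 and at percentile 12.3 in HEL.

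MAX, the shared partner without which neither MYC nor the MXD proteins bind E-boxes well, did not pass the test in either line. It had 54.9 and 61.4 CPM in HEL P-bodies, against 66.7 and 65.1 CPM in HEL cytosol. It had 33.6 and 36.2 CPM in MOLM-13 P-bodies, against 38.1 and 38.4 CPM in MOLM-13 cytosol. Its log2 changes were -0.13 ± 0.10 in MOLM-13 (edgeR adjusted p = 0.258) and -0.18 ± 0.09 in HEL (edgeR adjusted p = 0.119). The P-body libraries were below the cytosolic ones in both lines, by less than the test could call. With scaling by library totals MAX was called lower in both lines, at -0.57 in MOLM-13 and -0.51 in HEL.

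MGA was higher in P-bodies in both lines. It encodes a very large protein with a T-box DNA-binding domain beside its helix-loop-helix, and it recruits the PRC1.6 Polycomb complex. MGA had 567 and 484 CPM in HEL P-bodies, against 202 and 208 CPM in HEL cytosol, from 2978 to 9037 counts a library. The log2 change was 1.36 ± 0.08, or 2.56-fold higher (edgeR adjusted p = 2.4e-09). In MOLM-13 it had 404 and 386 CPM in P-bodies, against 189.9 and 172 CPM in the cytosol. The change was 1.13 ± 0.05, or 2.19-fold (edgeR adjusted p = 2.7e-15). Even the lower P-body library exceeded both cytosolic libraries by more than 2 times in each line. MGA stood at percentile 87.7 of all log2 changes in MOLM-13 and at percentile 92.7 in HEL, so other genes moved further.

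MXI1, an MXD protein that dimerises with MAX and recruits SIN3, was higher in P-bodies in both lines. It had 46.8 and 57.8 CPM in HEL P-bodies, against 28.4 and 26.4 CPM in HEL cytosol. It had 151 and 155 CPM in MOLM-13 P-bodies, against 92.2 and 86.3 CPM in MOLM-13 cytosol. The log2 changes were 0.78 ± 0.06 or 1.71-fold in MOLM-13 (edgeR adjusted p = 1.1e-10) and 0.93 ± 0.12 or 1.91-fold in HEL (edgeR adjusted p = 9.8e-06). The groups did not overlap in either line. MYC, MXI1, MXD1 and MGA in HEL, and MXI1 and MGA in MOLM-13, kept their direction and call under each of the alternative settings tried.

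The other MXD mRNAs were lower in P-bodies or did not pass the test. MXD1, which rises as myeloid cells differentiate and replaces MYC on MAX, had 16.9 and 15.0 CPM in HEL P-bodies, against 27.5 and 23.7 CPM in HEL cytosol. Its log2 change in HEL was -0.68 ± 0.13, or 1.605-fold lower (edgeR adjusted p = 0.000541). In MOLM-13 it had 33.0 and 29.6 CPM in P-bodies, against 31.7 and 33.8 CPM in the cytosol, which overlapped, and the change was -0.06 ± 0.11 (edgeR adjusted p = 0.625). Under scaling by library totals it was called lower there, at -0.50 (adjusted p = 0.000439). MXI1 and MXD1 thus lay on opposite sides in HEL, although their proteins share the SIN3-binding and MAX-binding parts.

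MXD3, which is expressed in proliferating cells unlike most of its family, had 12.4 and 10.6 CPM in MOLM-13 P-bodies, against 25.1 and 23.0 CPM in MOLM-13 cytosol. The change of -1.06 ± 0.15 is a 2.08-fold lower level (edgeR adjusted p = 8.5e-07). In HEL it had 8.53 and 9.24 CPM in P-bodies, against 10.5 and 11.7 CPM in the cytosol, and the change of -0.33 ± 0.16 did not pass (edgeR adjusted p = 0.103). Both HEL P-body libraries were below both cytosolic ones, at 136 to 203 counts a library.

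MXD4, a family member that also pairs with MLX, had 17.7 and 28.3 CPM in MOLM-13 P-bodies, against 41.6 and 44.1 CPM in MOLM-13 cytosol. Its 2 P-body libraries stood apart from each other, and both were below the cytosol. The change was -0.91 ± 0.14, or 1.88-fold lower (edgeR adjusted p = 4.1e-06), and it was -0.58 without the first MOLM-13 P-body library and -1.25 without the second, called in both cases. In HEL it had 19 and 27 counts in P-bodies, against 22 and 35 counts in the cytosol, where the change of -0.26 ± 0.36 did not pass (edgeR adjusted p = 0.567). The HEL libraries overlapped, and the standard error there was wide on so few counts.

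MNT, a broadly expressed MAX-binding repressor and a SIN3 recruiter, had 5.94 and 5.45 CPM in MOLM-13 P-bodies, against 11.2 and 11.01 CPM in MOLM-13 cytosol. The change was -0.96 ± 0.20, or 1.94-fold lower (edgeR adjusted p = 0.000184). In HEL it had 5 and 12 counts in P-bodies, against 19 and 23 counts in the cytosol. The change of -1.25 ± 0.48 passed the test (edgeR adjusted p = 0.0371) on few reads. It was -0.73 (adjusted p = 0.289) without the first HEL P-body library and -1.95 (adjusted p = 0.0166) without the second, and the call was also lost without either HEL cytosolic library (adjusted p of 0.138 without the first and 0.181 without the second), in DESeq2 (-1.22, adjusted p = 0.228) and with the trend on GC content and transcript length removed (-0.67, adjusted p = 0.285).

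MLX, the partner of the glucose-responsive factors, was called higher in P-bodies in MOLM-13 and was not called in HEL. It had 39.3 and 37.2 CPM in MOLM-13 P-bodies, against 28.9 and 30.0 CPM in MOLM-13 cytosol, a change of 0.38 ± 0.10 or 1.30-fold (edgeR adjusted p = 0.00303), which turned to -0.06 under scaling by library totals. In HEL it had 40.5 and 37.4 CPM in P-bodies, against 44.8 and 44.7 CPM in the cytosol, with a change of -0.20 ± 0.10 (edgeR adjusted p = 0.112). MLX shares 770 exon bases with PSMC3IP, a gene on the opposite strand, and the sources used here do not give the strand setting of the counting. PSMC3IP was itself higher in P-bodies, with 30.9 ± 0.435 CPM against 12.7 ± 1.05 CPM in the cytosol of MOLM-13 and 19.4 ± 1.19 CPM against 10.5 ± 1.34 CPM in the cytosol of HEL (SD, n = 2 each). The part of those reads in the MLX result was not tested. MNT shares 1065 exon bases with an antisense gene, AC006435.1, that had 0 counts.

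**Figure D2:**
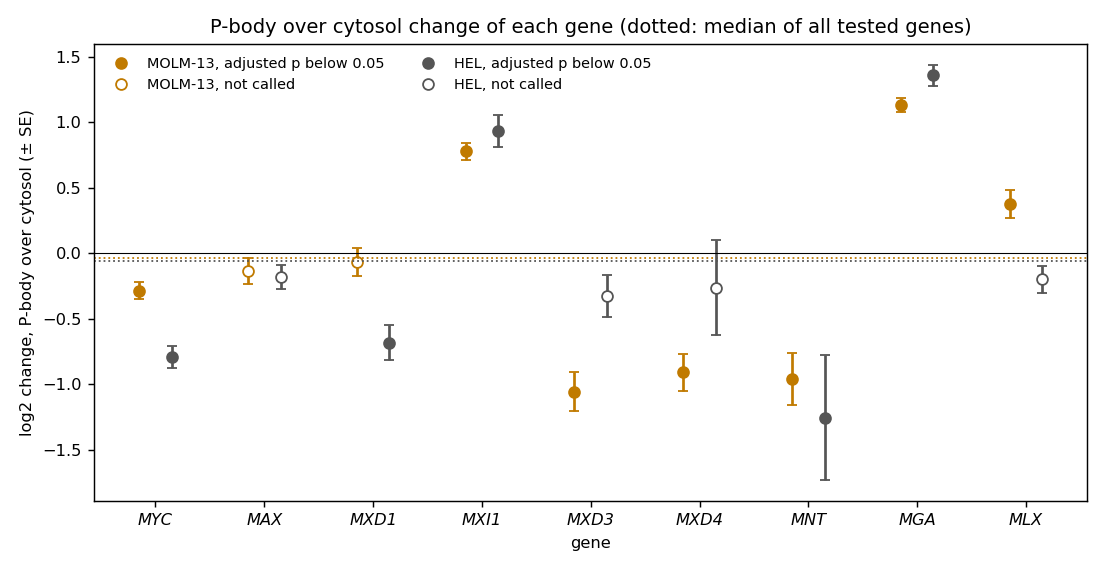
Log2 change of each mRNA, P-body over cytosol, with its standard error, for MOLM-13 and HEL side by side, dotted lines marking the median of all tested genes. MGA (1.13 in MOLM-13, 1.36 in HEL) and MXI1 (0.78 in MOLM-13, 0.93 in HEL) lie above 0 in both lines, MYC and MNT below 0 in both, and MLX on opposite sides in the 2 lines (0.38 in MOLM-13, which turned to -0.06 under scaling by library totals, and -0.20 in HEL, not called).

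Whether the 2 lines differed in the change was tested as an interaction in a fit of all 8 libraries. MYC had a difference of 0.32 (MOLM-13 minus HEL, log2, edgeR adjusted p = 0.0487), MXD3 of -0.92 (0.00420) and MGA of -0.42 (0.00565), so that 1 member was called higher and 2 lower. Of all 17477 genes, 22.2% were called, 9.15% higher and 13.0% lower, and the median difference was -0.11. The 6 others did not pass, with differences of 0.43 for MXD1 (adjusted p = 0.102), 0.38 for MLX (0.0723), -0.35 for MXI1 (0.0741), -0.82 for MXD4 (0.153), -0.14 for MAX (0.527) and 0.10 for MNT (0.924). This fit scales the libraries of both lines together, and the term moved with the scaling. With the TMM factors of each line's own fit, chosen after seeing the data, MYC was at 0.51 (0.00168) and MXD3 at -0.73 (0.0195), MXD1 at 0.62 (0.0151) and MLX at 0.58 (0.00624) passed, and MGA did not (-0.23, 0.137). Under scaling by library totals, 51.7% of the called genes were higher in place of 41.3%.

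The call of the MYC difference was lost without the second HEL P-body library (adjusted p = 0.104), without either MOLM-13 P-body library (0.16 without the first and 0.0759 without the second) and without the first MOLM-13 cytosolic library (0.247), with values of 0.23 to 0.35. It was also lost with a CPM of at least 5 (0.24, adjusted p = 0.101). The MXD3 difference was -0.55 (adjusted p = 0.116) without the first HEL cytosolic library, and the MGA difference was 0.02 without the first HEL P-body library, -0.10 without the first HEL cytosolic library and -0.15 without the second. MXD1 and MLX passed without the first HEL P-body library and without either HEL cytosolic library, with values of 0.62 to 0.83 for MXD1 and 0.67 to 0.76 for MLX. Without the second MOLM-13 P-body library the MXD4 difference was -1.19 (adjusted p = 0.0204).

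The lines also differed in how much of each mRNA they held. Of all 17477 genes tested over the 8 libraries, 84.4% differed between the lines in the cytosol (44.2% higher in MOLM-13 and 40.1% lower) and 81.8% in P-bodies (41.0% higher and 40.8% lower), and 7 of the 9 members were called in each fraction, 5 higher and 2 lower. With 1 line of each kind, line and preparation cannot be told apart, and in bulk libraries neither can fewer cells with an mRNA and less of it per cell. In the cytosol, MXD4 was 26.0-fold higher in MOLM-13 than in HEL (log2 4.70 ± 0.23, edgeR adjusted p = 3.1e-14), MNT 9.13-fold (3.19 ± 0.27, 6.1e-10), MXI1 3.53-fold (1.82 ± 0.10, 3.2e-13) and MXD3 2.33-fold (1.22 ± 0.15, 1.8e-07). The folds of MXD4 and MNT rest on few HEL cytosolic counts, 22 and 35 for MXD4 and 19 and 23 for MNT. MXD1 was higher by 0.48 ± 0.13 (edgeR adjusted p = 0.00166), a call that was lost without the second HEL cytosolic library (0.23, adjusted p = 0.154) and with no filter on low counts (0.19, adjusted p = 0.369). These 5 encode MAX-binding repressors, while MGA, another such repressor, was at -0.07 (edgeR adjusted p = 0.404). MAX (-0.67 ± 0.10) and MLX (-0.49 ± 0.11) were lower in MOLM-13, and MYC was at -0.06 (edgeR adjusted p = 0.506). Without the first HEL cytosolic library, MYC (-0.27, adjusted p = 0.0129) and MGA (-0.24, adjusted p = 0.0373) were called lower as well.

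In P-bodies the same contrast gave 14.7-fold for MXD4 (3.88 ± 0.25, edgeR adjusted p = 4.2e-12), 9.81-fold for MNT (3.29 ± 0.35, 1.8e-08), 2.77-fold for MXI1 (1.47 ± 0.09, 2.9e-12) and 1.87-fold for MXD1 (0.90 ± 0.13, 1.9e-06). The HEL P-body counts were again few, 19 and 27 for MXD4 and 5 and 12 for MNT. MYC was higher in MOLM-13 P-bodies by 0.26 ± 0.08 (edgeR adjusted p = 0.00568), and this call was lost without the second HEL P-body library (0.19, adjusted p = 0.0510), without the first MOLM-13 P-body library (0.20, adjusted p = 0.0910) and with no filter on low counts (0.04, adjusted p = 0.860). It was 0.47 without the first HEL P-body library and 0.43 with a CPM of at least 5. MAX (-0.81 ± 0.10) and MGA (-0.49 ± 0.07) were lower in MOLM-13 P-bodies, and MXD3 (0.30, edgeR adjusted p = 0.0994) and MLX (-0.10, edgeR adjusted p = 0.367) did not pass. The MGA value was -0.19 (adjusted p = 0.0126) without the first HEL P-body library and -0.32 with a CPM of at least 5, against -0.71 with no filter on low counts.

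Divided by transcript length, to compare genes, the order of the mRNAs was not the same in the P-body and the cytosolic libraries. The length is that of 1 reference transcript a gene, and the isoform present is not known. Ranges over libraries do not cover that uncertainty in the order of genes. In RPKM, MYC was first in both cytosols, at 68.8 (64.0 and 73.5) in MOLM-13 and 71.6 (67.9 and 75.3) in HEL. In MOLM-13 P-bodies MXI1 was first, with 61.0 RPKM (60.3 and 61.6), above MYC with 52.2 RPKM (53.4 and 51.0), against 38.5 RPKM for MXI1 in MOLM-13 cytosol. In HEL P-bodies MGA was at 44.5 RPKM (48.0 and 40.9) and MYC at 43.6 RPKM (44.7 and 42.5), whose ranges overlapped, while in HEL cytosol MGA was at 16.4 RPKM, overlapping with MLX at 16.7. MAX followed at 38.3 RPKM in HEL P-bodies and 41.2 RPKM in HEL cytosol, and at 21.8 and 25.9 RPKM in the P-bodies and cytosol of MOLM-13. MNT was last in all 4 groups, at 0.112 and 0.253 RPKM in the P-bodies and cytosol of HEL and 1.10 and 2.33 RPKM in those of MOLM-13. MXD4 and MXD1 overlapped in MOLM-13 P-bodies (5.49 and 5.42 RPKM), and MXD3 and MGA in MOLM-13 cytosol (17.0 and 15.7 RPKM).

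**Figure D3:**
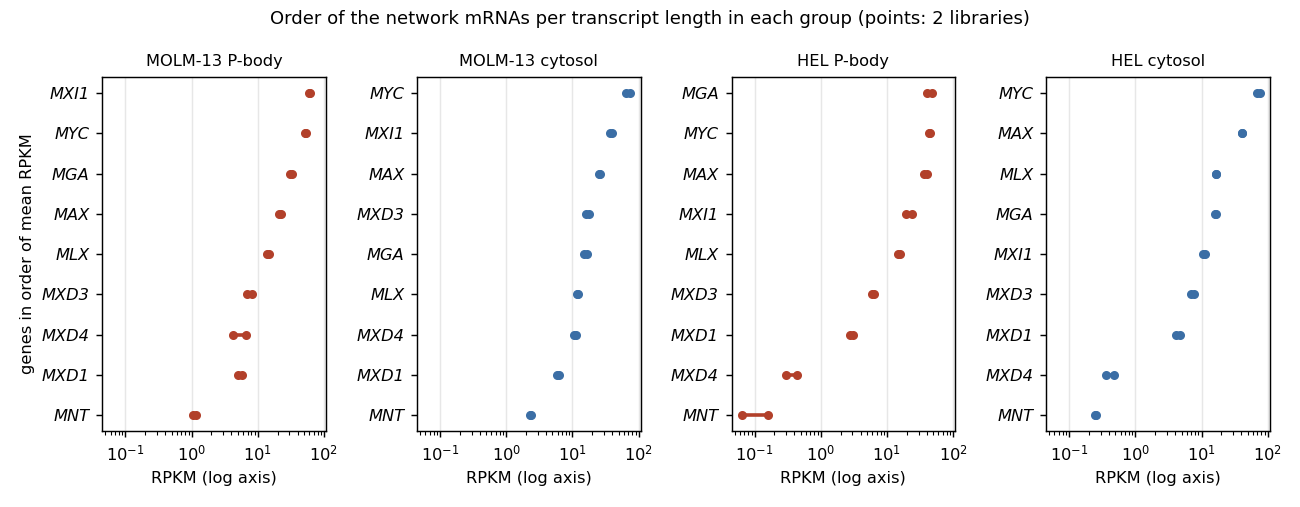
The 9 mRNAs in order of mean RPKM (log axis) in each of the 4 groups, with a point for each library. MYC leads both cytosolic groups, MXI1 leads MOLM-13 P-bodies (61.0 RPKM) and MGA and MYC overlap at the top of HEL P-bodies (44.5 and 43.6 RPKM).

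Ratios within a library do not depend on the scaling between libraries. The per-length ratio of MXI1 to MYC was 0.441 and 0.571 in HEL P-bodies, against 0.166 and 0.140 in HEL cytosol. The ratio was 1.13 and 1.21 in MOLM-13 P-bodies, against 0.617 and 0.510 in MOLM-13 cytosol. The balance of this MAX-binding repressor to MYC mRNA was thus higher in each P-body library than in any cytosolic library of its line. MGA to MYC was 1.07 and 0.962 in HEL P-bodies, against 0.238 and 0.222 in HEL cytosol. In MOLM-13 it was 0.610 and 0.606 in P-bodies, against 0.256 and 0.204 in the cytosol. MAX to MYC was 0.810 and 0.950 in HEL P-bodies, against 0.611 and 0.542 in HEL cytosol. The MOLM-13 values overlapped, at 0.395 and 0.442 in P-bodies and 0.400 and 0.355 in the cytosol. Ratios of MXD1, MXD3, MXD4 and MNT to MYC were not formed. In MOLM-13, MXD3 (-1.06), MXD4 (-0.91) and MNT (-0.96) had larger falls in log2 than MYC (-0.29), and MXD1 (-0.06) a smaller one. In HEL, MNT (-1.25, on few reads) had a larger fall than MYC (-0.79), and MXD1 (-0.68), MXD3 (-0.33) and MXD4 (-0.26) smaller ones.

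Within the MXD family the ratios moved in favour of MXI1. MXI1 to MXD1 was 6.40 and 8.90 in HEL P-bodies, against 2.38 and 2.57 in HEL cytosol, and 10.5 and 12.0 in MOLM-13 P-bodies, against 6.70 and 5.89 in MOLM-13 cytosol. MXD3 to MXI1 was 0.298 and 0.261 in HEL P-bodies, against 0.605 and 0.724 in HEL cytosol, and 0.135 and 0.111 in MOLM-13 P-bodies, against 0.445 and 0.436 in MOLM-13 cytosol. MXD4 to MXI1 was 0.0704 and 0.109 in MOLM-13 P-bodies, against 0.270 and 0.305 in MOLM-13 cytosol. In each of these ratios the P-body and cytosolic libraries of a line did not overlap.

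The reference transcripts of the members span most of the range of base composition of human mRNAs. MXI1 (2424 bases, 45.3% GC), MGA (12042 bases, 43.1%) and MXD1 (5587 bases, 42.7%) lie below the median of 49.8% over 20087 coding transcripts. MXD3 (1483 bases, 67.2%), MXD4 (4056 bases, 64.0%) and MNT (4996 bases, 61.4%) are at percentiles 98.2, 93.7 and 87.9. MYC (2366 bases, 53.9%), MLX (2586 bases, 51.8%) and MAX (1546 bases, 51.2%) lie above the median, at percentiles 63.8, 56.6 and 54.4. Over the whole coding sequence, 37.4% of the last codon positions are G or C in MGA and 53.1% in MXI1, beside a median of 60.6%. The share is 65.0% in MAX and 65.6% in MXD1. It is 73.5% in MLX, 74.9% in MNT, 76.0% in MYC, 84.2% in MXD4 and 85.4% in MXD3. Most of the MXD1 transcript is a 3′ untranslated region of 4661 bases.

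Across coding genes, the log2 change fell as GC content increased, with a Spearman rho of -0.72 in MOLM-13 (11201 genes) and -0.68 in HEL (11906 genes), given as a description over genes that share the same libraries. Transcript length gave 0.24 in MOLM-13 and 0.15 in HEL. A smooth trend on GC content and length was fitted over the tested genes with a reference transcript, noncoding ones included. It had an r squared of 0.41 in MOLM-13 (13658 genes) and 0.37 in HEL (14365 genes). For MGA the trend value was 0.43 in MOLM-13 and 0.37 in HEL, and 0.69 in MOLM-13 and 0.98 in HEL remained after its removal, both still called. For MXI1 the trend value was 0.30 in MOLM-13 and 0.13 in HEL, and 0.47 in MOLM-13 and 0.80 in HEL remained, both still called.

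With the trend removed, the GC-rich repressors were no longer called in MOLM-13, and of these MXD3 lay closest to the trend. MXD3 had an observed change of -1.06 and a trend value of -0.96, leaving -0.11 (edgeR adjusted p = 0.574). MXD4 had -0.91 and -0.68, leaving -0.24 (edgeR adjusted p = 0.172), and MNT had -0.96 and -0.56, leaving -0.42 (edgeR adjusted p = 0.0890). MYC in MOLM-13 had -0.29 and -0.23, leaving -0.07 (edgeR adjusted p = 0.422), while in HEL it had -0.79 and -0.42, leaving -0.38 (edgeR adjusted p = 0.00127). MLX in MOLM-13 had 0.38 and -0.13, leaving 0.49, which was still called.

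MXD1 was the member farthest below the trend. Its GC content goes with a positive trend value of 0.54 in MOLM-13 and 0.42 in HEL, while its observed changes were -0.06 in MOLM-13 and -0.68 in HEL. With the trend removed, MXD1 was at -0.62 in MOLM-13 (edgeR adjusted p = 4.2e-05) and at -1.11 in HEL (edgeR adjusted p = 6.7e-06). It was thus called lower in both lines under this trend. The trend used the GC content of the whole reference transcript, which for MXD1 is mostly 3′ untranslated region. In its coding sequence 65.6% of last codon positions are G or C, above the median of 60.6%. Over coding genes this share had a Spearman rho of -0.72 with the change in MOLM-13 and -0.63 in HEL. A trend on it was not fitted, and the MXD1 isoform present is not known.

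**Figure D4:**
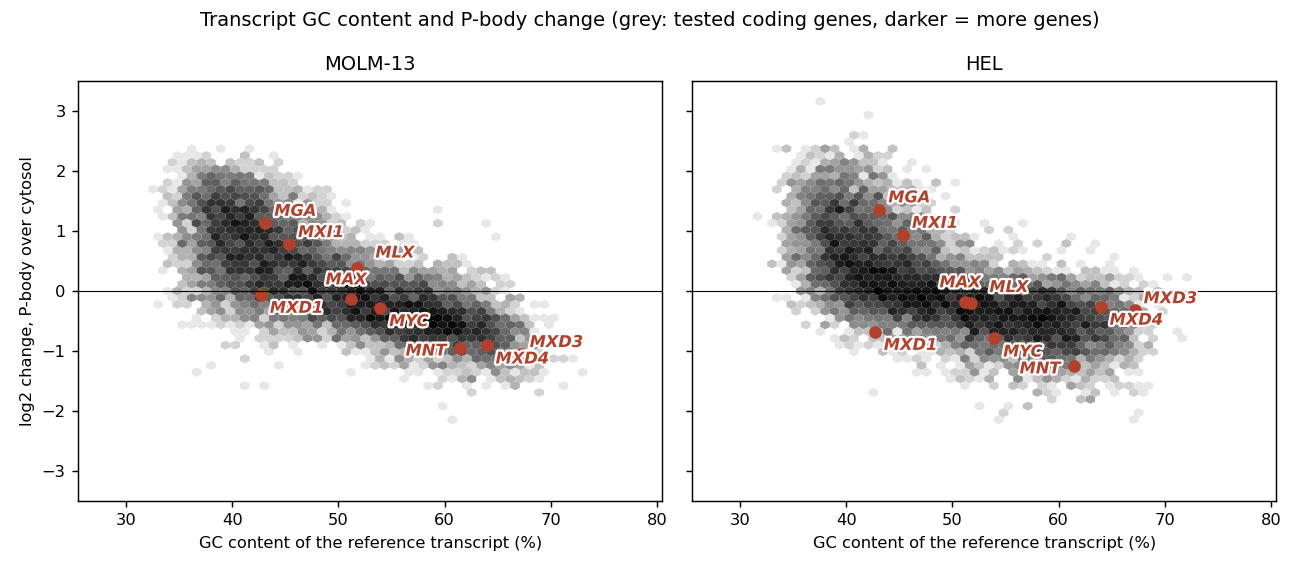
Log2 change, P-body over cytosol, against the GC content of the reference transcript for all tested coding genes (grey, darker where more genes lie) and the 9 network genes (labelled), in MOLM-13 and HEL. MGA and MXI1 sit on the upper side of the cloud for their GC content, MXD1 (42.7% GC) on its lower edge, and MXD3, MXD4 and MNT at the GC-rich end.

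AU-rich elements are bound by decay factors such as ZFP36 and recruit the deadenylation machinery, and their core is the pentamer ATTTA. The 3′ untranslated region of MYC (476 bases) holds 4 copies on the sense strand, 8.40 per kilobase, and 4.83% of 2214 such regions of similar length (a length ratio of at least 0.8 either way) hold as many. MXD1 holds 10 copies, MGA 4, MXI1 3 and MAX and MLX 2 each, while MXD3, MXD4 and MNT hold 0. Of similar-length regions, 96.2% hold at least 1 copy for MXD4 and 95.9% for MNT, and over all coding genes 61.6% do. MGA and MYC hold 4 copies each, and in both lines MGA was higher in P-bodies and MYC lower. The MGA region is longer, however, and 69.1% of regions of similar length hold as many, so the 2 counts are not comparable. MNT, with 0, was lower in both lines, although its HEL call rested on few reads and was lost in DESeq2. Whether AU-rich elements bear on the P-body changes was not tested. A match describes these letters only, and gene counts do not show which isoform or 3′ end was present.

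The genes around the network were described by lists of known partners, each to be read beside all tested genes, of which 32.4% were called higher and 28.5% lower in MOLM-13 (median log2 change -0.04) and 27.5% higher and 27.1% lower in HEL (median -0.06). Among network relatives and MLX targets, 3 were called higher in P-bodies and 2 called lower of 5 tested in MOLM-13 (median log2 change 0.72) and 3 higher and 2 lower of 6 in HEL (median -0.11). TXNIP, the glucose-responsive arrestin that MLX complexes activate, was higher in P-bodies in HEL (703 ± 57.9 CPM against 477 ± 0.125 CPM in the cytosol, SD, n = 2 each, log2 0.56) and in MOLM-13 (602 ± 5.14 CPM against 354 ± 1.95 CPM, log2 0.76). ARRDC4, another MLX target, rose by 0.72 in MOLM-13 and 0.37 in HEL, and was named after its values were seen. MLXIP, the partner of MLX, was lower, at -0.67 in MOLM-13 and -0.82 in HEL and was also named after its values were seen. MYCN was lower in HEL P-bodies (-1.89), at 0.512 CPM against 1.89 CPM in the cytosol, and MYCL was lower in MOLM-13 P-bodies (-0.91), at 3.36 CPM against 6.32 CPM, levels far below those of MYC.

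Of 17 SIN3-HDAC and NCOR corepressor genes, 11 were called higher and 4 called lower in MOLM-13 P-bodies (median 0.42), and 7 higher and 6 lower in those of HEL (median 0.08). Over all tested genes the shares were 32.4% higher and 28.5% lower in MOLM-13 (median -0.04) and 27.5% higher and 27.1% lower in HEL (median -0.06). ARID4A, a SIN3 complex subunit that binds the retinoblastoma protein, was higher by 1.84 ± 0.04 in MOLM-13 and 1.76 ± 0.08 in HEL, with 1979 ± 3.83 CPM in MOLM-13 P-bodies against 553 ± 8.90 CPM in the cytosol. Of 10 PRC1.6 genes, the complex that MGA scaffolds, 4 were called higher and 3 called lower in MOLM-13 (median -0.09), and 6 higher and 1 lower in HEL (median 0.33). CBX3, a heterochromatin protein of that complex, was higher by 0.95 ± 0.05 in MOLM-13 and 0.99 ± 0.08 in HEL. L3MBTL2, its histone-binding subunit, was lower, at -0.46 ± 0.12 in MOLM-13 and -0.53 ± 0.14 in HEL.

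Of 15 MYC coactivator genes, with MIZ1 (ZBTB17) among them, 2 were called higher and 9 called lower in MOLM-13 P-bodies (median -0.31), and 1 higher and 9 lower in those of HEL (median -0.33), beside 32.4% higher and 28.5% lower over all tested genes in MOLM-13 (median -0.04) and 27.5% higher and 27.1% lower in HEL (median -0.06). CCNT1, the cyclin of the elongation kinase P-TEFb that works with MYC, was higher by 1.25 ± 0.05 in MOLM-13 and 2.08 ± 0.08 in HEL. Among genes of MYC protein turnover, 6 of 15 were called higher and 6 called lower in MOLM-13 (median 0.09), and 5 of 16 higher and 3 lower in HEL (median 0.01). CIP2A, which protects MYC from dephosphorylation by PP2A, was higher by 1.40 ± 0.07 in MOLM-13 and 1.59 ± 0.08 in HEL. HUWE1, a ubiquitin ligase of MYC, was lower, at -0.74 ± 0.07 in MOLM-13 and -1.38 ± 0.10 in HEL. AXIN1, a scaffold for MYC phosphorylation and degradation, was lower, at -1.12 ± 0.15 in MOLM-13 and -1.01 ± 0.34 in HEL.

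Of the proteins that bind MYC mRNA, 8 of 16 were encoded by mRNAs called higher and 5 by mRNAs called lower in MOLM-13 P-bodies (median 0.14), and 6 of 18 by mRNAs higher and 6 by mRNAs lower in HEL (median 0.07). The background over all tested genes was 32.4% higher and 28.5% lower in MOLM-13 (median -0.04), and in HEL 27.5% higher and 27.1% lower (median -0.06). IGF2BP3, of a family that stabilises MYC mRNA, was higher by 1.89 ± 0.16 in MOLM-13 and 1.36 ± 0.10 in HEL. ZFP36, a decay factor of AU-rich mRNAs, was lower in HEL (10.1 ± 1.21 CPM against 18.8 ± 0.186 CPM in the cytosol, log2 -0.89), and in MOLM-13 it did not pass (-0.04). YBX1 was lower in MOLM-13 (525 ± 0.869 CPM against 985 ± 16.6 CPM in the cytosol, log2 -0.91), and in HEL it did not pass (0.04).

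Genes that MYC activates did not lie on one side. Of 49 tested in MOLM-13, 16 were called higher in P-bodies and 18 lower (median 0.05), and of 48 tested in HEL, 18 higher and 12 lower (median -0.06), beside 32.4% higher and 28.5% lower of all tested genes in MOLM-13 (median -0.04) and 27.5% higher and 27.1% lower in HEL (median -0.06). WDR43, a factor of small ribosomal subunit assembly, was higher in HEL by 1.92 ± 0.07, and HK2, a hexokinase, was lower there, at -1.13 ± 0.10. EIF4E, the cap-binding translation factor, was higher in MOLM-13 by 1.96 ± 0.07, and SLC19A1, a folate carrier, was lower there, at -1.26 ± 0.12.

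**Figure D5:**
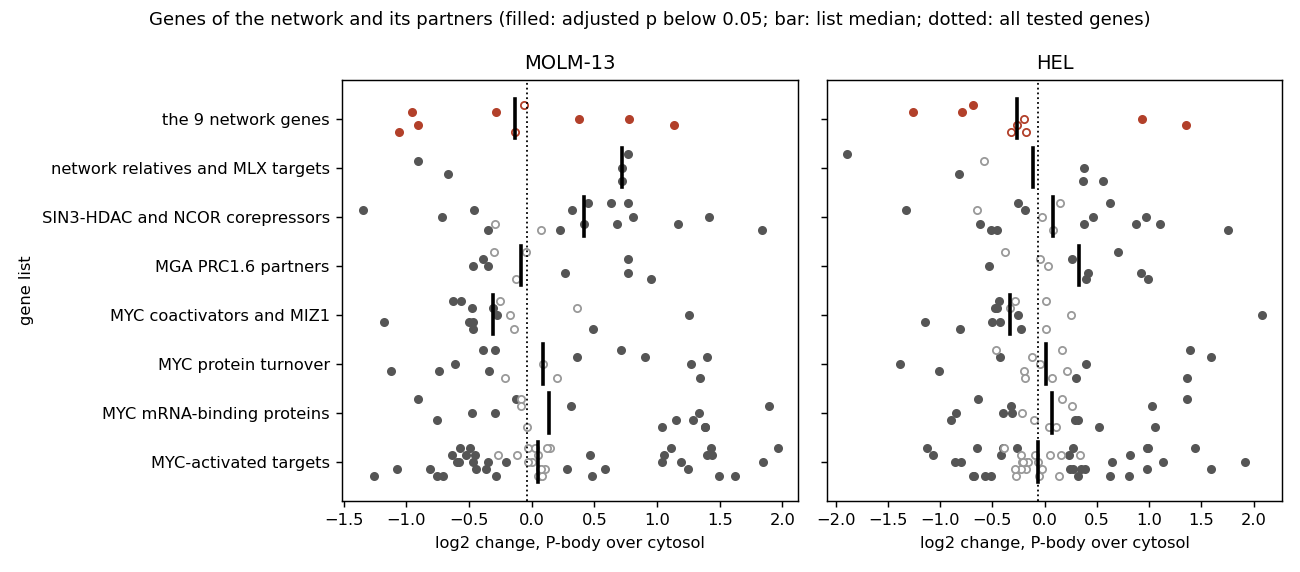
Log2 change, P-body over cytosol, of each gene of the network and of 7 partner lists in MOLM-13 and HEL, filled where the adjusted p is below 0.05, with a bar at each list's median and a dotted line at the median of all tested genes. The coactivator list has its median at -0.31 in MOLM-13 and -0.33 in HEL, and the target list lies on both sides of 0.

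The genes whose pattern over the 8 libraries was nearest to that of MYC, by the Euclidean distance of centred log2 CPM among 11975 genes, were MAVS (0.202), ZC3H18 (0.205), SUMF2 (0.247), XAB2 (0.249) and ITPKC (0.285). MAVS, the mitochondrial adaptor of RNA sensing, had log2 changes of -0.33 ± 0.07 in MOLM-13 and -0.76 ± 0.09 in HEL, beside the -0.29 and -0.79 of MYC. The nearest to MGA were OXR1 (0.277), VCPIP1 (0.297), PGM2L1 (0.307), FAM111A (0.313) and UGCG (0.334). OXR1, an oxidation resistance gene, had log2 changes of 1.30 ± 0.05 in MOLM-13 and 1.26 ± 0.07 in HEL, beside the 1.13 and 1.36 of MGA. A small distance describes these 8 libraries and says nothing of shared control.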

How the data were processed

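The authors deposited raw counts for each gene symbol, with 1 table a line. As tools, the submitters' processing notes list SAMtools 1.12, STAR and DESeq2, and as build GRCh38. The sources used here give no counter, annotation release or strand setting. Of 61544 rows, 1348 with 112 repeated symbols were left out (0.0193 to 0.0477% of a library's counts), leaving 60196. Symbols were matched to GENCODE 29, 55423 of them, 18819 through a newer symbol. The reference transcript of a gene was the APPRIS principal one with untranslated regions of at least 100 bases where available, then the longest coding sequence.

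P-body and cytosolic libraries were compared in each line, and between lines in a fit of all 8, with edgeR 4.0.16 in R 4.3.3 (quasi-likelihood test, TMM, filterByExpr with a smallest count of 10, Benjamini-Hochberg adjustment over all tested genes, threshold 0.05). The standard error is the log2 change divided by the square root of F. The procedure was tested on simulated data with 200 changed genes. RPKM is CPM under the scaling of all 8 libraries over transcript length. The trend used natural splines with 5 degrees of freedom each for GC content and log2 length, removed as an offset. Intervals and SDs rest on 2 libraries a group. Between 5 and 9037 counts lay behind each value of a member.

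The members and lists were chosen with earlier results of these data known. All 9 members are named, with, from each list and line, the called genes with the largest rise and the largest fall, and the 5 genes nearest to MYC and to MGA. Some genes that this rule names are not reported here. Alternatives were RLE factors, library totals, DESeq2 1.42.0, other filters on low counts, each library left out, a replicate block and the trend. PHB1 of the target list was not matched and was not used here.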

Additional observations from a re-analysis of the deposited data

Results flagged for a closer look

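The P-body change differed between MOLM-13 and HEL, by the interaction test in edgeR over 17477 genes, for 3 members and for 9 of the partner genes named above. Of all 17477 genes, 22.2% were called in this test, 9.15% higher and 13.0% lower. The partner genes had been named for the largest called rise or fall of their list in MOLM-13, HEL or both. That choice favours a difference between the lines. Each value is the log2 change in MOLM-13 minus that in HEL in the joint fit, whose scaling is not that of each line's own fit, so it need not equal the gap between the changes given for each line. The members called were MYC (0.32, adjusted p = 0.0487), MXD3 (-0.92, adjusted p = 0.00420) and MGA (-0.42, adjusted p = 0.00565). MYC and MXD3 also passed with the scaling of each line's own fit, chosen after seeing the data, and MGA did not. Of 15 alternatives in all, 6 lost the MYC call and 1 lost the MXD3 call. For MGA, 3 lost the call and 1 turned the direction.

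Among the cofactors, CCNT1 differed by -1.02 (adjusted p = 3.3e-07), with changes of 1.25 in MOLM-13 and 2.08 in HEL. CIP2A differed by -0.38 (adjusted p = 0.0193), a wider gap than that between its changes of 1.40 in MOLM-13 and 1.59 in HEL. HUWE1 differed by 0.45 (adjusted p = 0.0114), with changes of -0.74 in MOLM-13 and -1.38 in HEL. For the partner genes, values with the scaling of each line's own fit are not given here. Among the mRNA-binding proteins, ZFP36 differed by 0.67 (adjusted p = 0.0108), at -0.04 in MOLM-13 and lower in P-bodies in HEL. YBX1 differed by -1.14 (adjusted p = 8.4e-09), lower in P-bodies in MOLM-13 and at 0.04 in HEL.

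Among the MYC targets, WDR43 differed by -0.71 (adjusted p = 3.7e-06), HK2 by 0.90 (adjusted p = 0.000681), EIF4E by 0.79 (adjusted p = 4.7e-05) and SLC19A1 by -0.76 (adjusted p = 0.000632). EIF4E was higher in P-bodies in both lines, by 1.96 in MOLM-13 and 0.98 in HEL. HK2 was at -0.03 in MOLM-13 and -1.13 in HEL.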

How the results depend on the processing

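Library totals gave 6761 genes and 6 members lower in HEL, and 2903 genes higher, 7154 lower and MLX at -0.063 in MOLM-13. DESeq2 called 2623 genes lower in MOLM-13 and 1466 lower in the line difference. With the GC and length trend removed, 2536 genes and 1 member were lower in MOLM-13. The directions of MAX (0.050), MXD3 (0.29), MXD4 (0.38) and MLX (0.12) in HEL and of MAX (0.063) in MOLM-13 then turned, none of them called. Same-numbered libraries deviated together with a correlation of 0.202 in HEL and -0.0455 in MOLM-13, and the labels give only a number, so pairing is not established. A replicate block called 7996 genes in HEL and 8589 in MOLM-13, against 8067 and 8573 without it, with MNT in HEL at an adjusted p of 0.0567, and 3713 in the line difference, with 0 members higher (MYC 0.32, adjusted p = 0.0681). The replicate block with the trend removed gave 2517 genes and 1 member lower in MOLM-13, with MAX at 0.051, MXD3 at 0.29, MXD4 at 0.38 and MLX at 0.12 in HEL and MAX at 0.064 in MOLM-13.

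In the line difference, 2 members were higher with RLE factors, 3 with library totals and 0 with a CPM of at least 5. In the main fit 9.15% of all tested genes were called higher, and these member counts are no result about the network in itself. With TMM factors of each line's own fit, 2634 genes were higher, 1400 lower, 3 members higher and 1 lower, and MAX was at 0.049. Leaving out each library gave 1198 to 3441 genes higher and 880 to 2054 lower, with 0 to 3 members higher and 0 to 3 lower. MAX then ranged between -0.19 and 0.16, MNT between -0.099 and 0.87 and MGA between -0.54 and 0.016, and MXD1 in MOLM-13 between -0.13 and 0.030. Between the lines in the cytosol, 4 members were lower with no filter, where 40.1% of all tested genes were lower in the main fit. MYC was at 0.19 and MGA at 0.17 with a CPM of at least 5, and MYC ranged between -0.27 and 0.019 with a library left out. In P-bodies, MLX was at 0.068 with a CPM of at least 5 and ranged between -0.19 and 0.13 with a library left out. Over all alternatives, 429 member values kept direction and call, 27 gained a call, 31 lost one and 24 reversed. The cause of these moves was not tested. Counts of 5 to 35 limit MNT and MXD4 in HEL.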
